A study of Sus scrofa with 8 samples.

Results

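The miR-21, miR-34, miR-146, miR-155 and miR-223 families were examined in the small RNA libraries of young and old pig livers. Members were the miRNA names that, after a leading ssc- was removed, read miR-21, miR-34a, miR-34b, miR-34c, miR-146a, miR-146b, miR-155 or miR-223, with or without an arm suffix, and 10 of the 888 listed names met this. They were miR-21-5p, ssc-miR-34a, ssc-miR-34c, miR-34c-3p, miR-146a-5p, ssc-miR-146b, ssc-miR-155-5p, ssc-miR-155-3p, miR-223-3p and miR-223-5p, and miR-34b was not among the names. Livers came from 2 young sows at 180 days of age and 2 old sows at 8 years of age, all of the Yanan breed and, per the study's methods, without close kinship. Each liver gave 1 rRNA-depleted RNA-seq library and 1 small RNA library, so that each age was represented by 2 libraries of a kind. No treatment or genotype separated the groups, and whole liver tissue was used in all of them, in which more cells of a type and more RNA per cell cannot be told apart. The study states that the young sows had never farrowed, whereas the old sows had done so over many years. Age and birth history therefore cannot be told apart.

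A miRNA is cut as a short duplex from a hairpin, and 1 arm of that duplex is usually kept by an Argonaute protein, where it pairs with mRNAs through its seed and lowers their stability or translation. miR-21 is abundant in many tissues and is induced by STAT3 and AP-1, and the miR-34 family is linked to DNA damage and senescence. miR-146a and miR-155 are induced by NF-kB signalling, which miR-146a damps and miR-155 tends to promote. miR-223 is made chiefly in neutrophils, monocytes and macrophages, and in liver it is read mainly as a myeloid miRNA. The mature sequences were not used here.

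Depth and scaling bore on every value below. The deposited miRNA values were whole multiples of 1 step per library, which gave back whole reads. The reads summed over all names lay between 11661943 and 14139461 per library, and a read may be counted on several names, so that these sums are not library depths. The deposited scaling did not make the libraries equal, since the summed values of young replicate 1 were 1.68 times those of young replicate 2. Levels are therefore given as deposited and, where named so, as RPM, the reads per 1000000 reads on known miRNA names, which numbered 8644690 to 10315686 per library. Over the 867 names above 0 in at least 2 libraries, the median log2 fold change between old and young was 0.18 as deposited and -0.01 after TMM scaling. The liver miRNA ssc-miR-122 held between 313180 and 390458 RPM in the 4 libraries.

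Between members, the levels spanned several orders of magnitude and miR-21-5p stood far above the others. It ranked 15 and 12 among 547 known names in young livers against 9 and 27 in old ones. It held 89.5% of the members' reads in young replicate 1 (95% Wilson interval 89.3 to 89.6%), 90.7% in young replicate 2 (90.6 to 90.8%), 86.6% in old replicate 1 (86.5 to 86.8%) and 74.8% in old replicate 2 (74.5 to 75.1%). These intervals cover counting error only. miR-223-3p and ssc-miR-155-5p came next, followed by miR-146a-5p and ssc-miR-34a with mean levels close to each other, and then by ssc-miR-146b and ssc-miR-34c. The rarer arms miR-223-5p, miR-34c-3p and ssc-miR-155-3p lay lowest, and the order of neighbours in the low range changed from liver to liver.

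**Figure D1:**
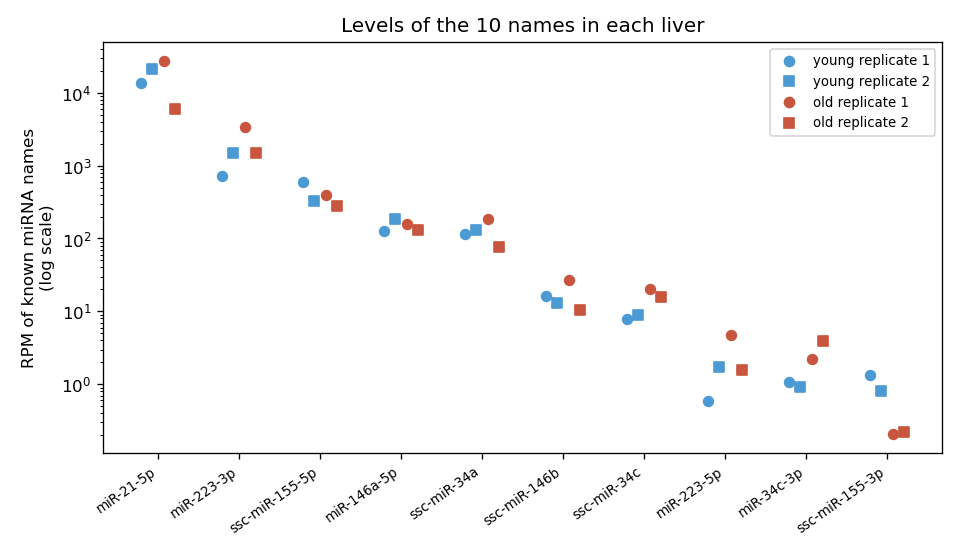
Level of each of the 10 names in each of the 4 livers, in RPM of known miRNA names on a log axis, with blue for young and red for old livers, circles for replicate 1 and squares for replicate 2. miR-21-5p lay highest in every liver, ssc-miR-34c and miR-34c-3p were higher in both old livers, and ssc-miR-155-3p was lower in both. miR-223-3p was also higher in both old livers, with old replicate 2 (1511) just above young replicate 2 (1475).

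No member passed the thresholds between old and young livers, an adjusted p-value under 0.05 and an absolute log2 fold change above 1 in limma. Nor did any other name: limma called 0 of the 867 names tested (0%), with 103 (11.9%) under an unadjusted p of 0.05. On whole reads, edgeR's exact test called 26 names (3%) and DESeq2 called 43 (4.96%), and no member was among either. Of the 10 members, 5 had a higher and 5 a lower mean log2 value in old livers, and their median log2 fold change of 0.10 lay beside 0.18 over all names. In the deposited values 4 members were higher in both old livers than in both young livers, and 1 was lower in both. Among all names 28.3% were higher and 16.1% lower in this way, so with 10 members these counts are near the background.

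miR-21-5p, the most abundant member, differed between the 2 old livers far more than between the age groups. Its deposited values were 184374 and 174136 in young replicates 1 and 2, and 301058 and 64111 in old replicates 1 and 2. As deposited the young livers lay close together, and the old livers lay on either side of them, 1 above and 1 below. The mean was 179255 ± 7239 in young and 182585 ± 167547 in old livers (SD, n = 2 each), and the log2 fold change was -0.37 with a standard error of 0.81 (limma adjusted p = 0.891). It was 0.75 without old replicate 2 and -1.48 without old replicate 1, so its direction rested on which old liver was kept. In RPM the old livers again lay on either side of the young ones, with 13398 and 20936 in young livers against 27133 and 6012 in old ones, a 4.51-fold gap between the old livers. The young livers were not close in RPM, with a log2 gap of -0.64, replicate 1 minus replicate 2. The median absolute gap between the young livers was 0.25 over 415 known names. Among 415 known names with a mean deposited value of at least 10, only 17 (4.10%) had a larger log2 gap of old replicate 1 above old replicate 2 than miR-21-5p.

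The names whose pattern over the 4 libraries was most like that of miR-21-5p, by the root mean square difference of centred log2(value + 1) among 537 candidates, were ssc-miR-138 with a difference of 0.04, miR-541-5p with 0.18 and miR-138-5p with 0.18. The deposited values of ssc-miR-138 were 33.4 and 28.9 in young livers against 53.4 and 10.7 in old ones. Those of miR-138-5p were 78.7 and 74.1 in young livers against 96.6 and 27.4 in old ones. Both shared the high old replicate 1 and the low old replicate 2, at levels far below miR-21-5p. By their names ssc-miR-138 and miR-138-5p are forms of 1 miRNA, so they are not independent likenesses. miR-541-5p rested on single reads, with deposited values of 1.33, 0.962, 3.41 and 0.

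The miR-34 family was split, with both miR-34c arms higher in old livers and ssc-miR-34a overlapping between ages. ssc-miR-34c read 107 and 75.0 in young livers against 227 and 167 in old ones, from 80, 78, 200 and 140 reads. Both old livers lay above both young livers, a 2.17-fold difference in mean value. The log2 fold change was 1.11 with a standard error of 0.60, and the adjusted p of limma was 0.517 and that of edgeR's exact test 0.398. Its rarer partner miR-34c-3p read 14.7 and 7.70 in young livers against 25.02 and 41.6 in old ones, from 11, 8, 22 and 35 reads. The old livers were again higher, 2.98-fold in mean, with a log2 fold change of 1.51 and a standard error of 0.64 (limma adjusted p 0.414, with 0.0474 unadjusted). Both arms were without overlap as deposited, in RPM and after each library was centred on the median of all names. After that centring 2 of the 10 members were higher and 1 lower without overlap, beside 24% and 25.8% of all names. The 2 arms come from 1 hairpin and are not independent members.

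ssc-miR-34a, the most abundant name of the family, read 1590 and 1094 in young livers against 2039 and 819 in old ones. The old livers held both the highest and the lowest value. Its log2 fold change was -0.03 with a standard error of 0.68 (limma adjusted p = 0.991), and it ranged from -0.69 without old replicate 1 to 0.63 without old replicate 2. Within a library, where scaling plays no part, ssc-miR-34a held 14.9 and 14.6 reads per read of ssc-miR-34c in young livers against 8.97 and 4.92 in old ones. The ratio was lower in both old livers, by a mean log2 difference of -1.15. The exact two-sided permutation test gave p = 0.33, the smallest that 2 against 2 libraries allow, for this and for the other ratio without overlap among the 5 ratios computed, and an adjustment over the 5 cannot lower it.

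**Figure D2:**
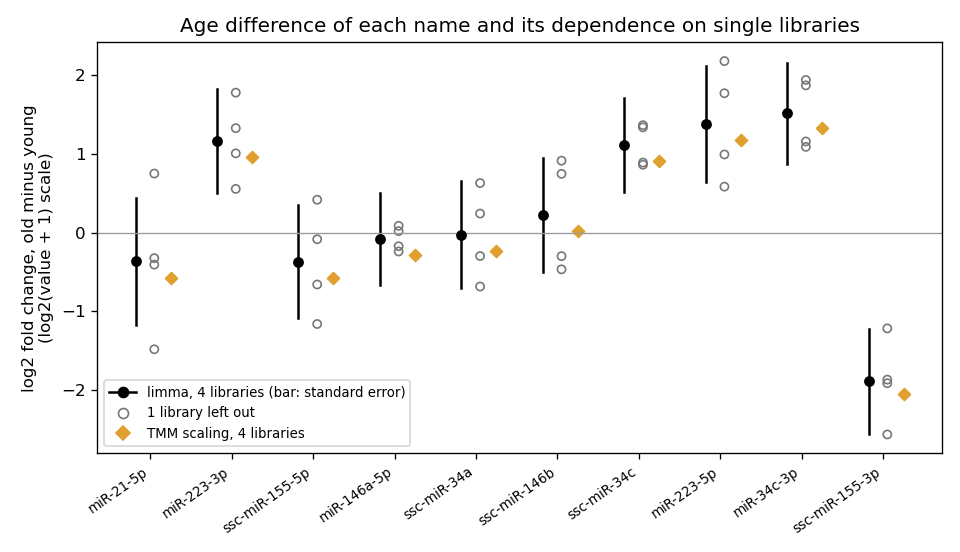
Log2 fold change of each name, old minus young, on the log2(value + 1) scale, with black points and bars for limma's estimate and standard error over the 4 libraries, open circles for the 4 estimates with 1 library left out, and diamonds for TMM scaling. The left-out estimates lay on both sides of 0 for miR-21-5p, ssc-miR-155-5p, miR-146a-5p, ssc-miR-34a and ssc-miR-146b, and on 1 side of 0 for the other 5 names.

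The 2 miR-146 miRNAs, which share a seed and repress the Toll-like receptor signalling proteins IRAK1 and TRAF6, showed no separation by age. miR-146a-5p read 1764 and 1544 in young livers against 1750 and 1396 in old ones. Its values lay closest together among the members as deposited, and its log2 fold change of -0.08 had a standard error of 0.58 (limma adjusted p = 0.980). It changed sign without young replicate 1 (0.02) and without old replicate 2 (0.08). ssc-miR-146b read 225 and 109 in young livers against 296 and 113 in old ones, as deposited high in both replicates 1 and low in both replicates 2. The gap between its young livers was 2.07-fold as deposited and 1.25-fold in RPM. Its log2 fold change was 0.22 with a standard error of 0.73 (limma adjusted p = 0.929), and it fell to -0.30 without young replicate 2 and to -0.47 without old replicate 1. The reads of miR-146a-5p per read of ssc-miR-146b were 7.82 and 14.2 in young livers against 5.92 and 12.4 in old ones, so that the ratio differed more within each age than between them (mean log2 difference -0.30, exact permutation p = 0.667).

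The arms of miR-155, a miRNA of activated macrophages and lymphocytes, differed from each other, the main arm overlapping between ages and the rare one lower in both old livers. ssc-miR-155-5p, the main arm, read 8084 and 2708 in young livers against 4409 and 2960 in old ones. As deposited the young livers held both extremes, with a 2.99-fold gap that was 1.80-fold in RPM (587 against 326). Its log2 fold change was -0.37 with a standard error of 0.72 (limma adjusted p = 0.868), and it was 0.42 without young replicate 1. ssc-miR-155-3p, the rarer arm, was read 14 and 7 times in the young livers and 2 times in each old liver. Both old libraries were thus under the limit of 3 reads taken here for detection. The ratio of old to young, set by the known reads of the libraries, was 0.193 with an exact 95% interval for counting error of 0.0481 to 0.572. It was the only member lower in both old livers under all 3 scalings. Its log2 fold change of -1.89 had a standard error of 0.67 and the lowest adjusted p of the members (limma 0.328, with 0.0234 unadjusted). With miR-34c-3p it made 2 of 10 members under an unadjusted p of 0.05, beside 11.9% of all names. The reads of the 5p arm per read of the 3p arm were 433 and 402 in young livers against 1939 and 1245 in old ones, where each ratio rests on 2 reads of the 3p arm (mean log2 difference 1.90, exact permutation p = 0.33).

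miR-223-3p, the second most abundant member and a marker of neutrophils and other myeloid cells, was higher in both old livers as deposited. It read 9824 and 12265 in young livers against 37596 and 16113 in old ones. Old replicate 1 stood 2.33-fold above old replicate 2, which lay nearer to young replicate 2 than to old replicate 1. The mean was 11044 ± 1726 in young and 26855 ± 15191 in old livers (SD, n = 2 each), a 2.43-fold difference, with a log2 fold change of 1.16 and a standard error of 0.66. The adjusted p was 0.552 in limma, 0.428 in edgeR's exact test and 0.217 in DESeq2. In RPM the nearest livers were 1475 in young replicate 2 and 1511 in old replicate 2, and after median centring the ages overlapped. Without old replicate 1 the log2 fold change was 0.55.

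miR-223-5p, the minor arm, followed the same order of livers as deposited, at far fewer reads. It was read 6 and 15 times in young livers against 46 and 14 times in old ones. As deposited the old livers lay above the young ones (8.00, 14.4, 52.3 and 16.7), but in RPM young replicate 2 was above old replicate 2, with 1.74 against 1.56. Its log2 fold change was 1.38 with a standard error of 0.73 (limma adjusted p = 0.511), and it was 0.58 without old replicate 1. The reads of the 3p arm per read of the 5p arm were 1227 and 850 in young livers against 719 and 968 in old ones, overlapping between ages (mean log2 difference -0.29, exact permutation p = 0.667).

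**Figure D3:**
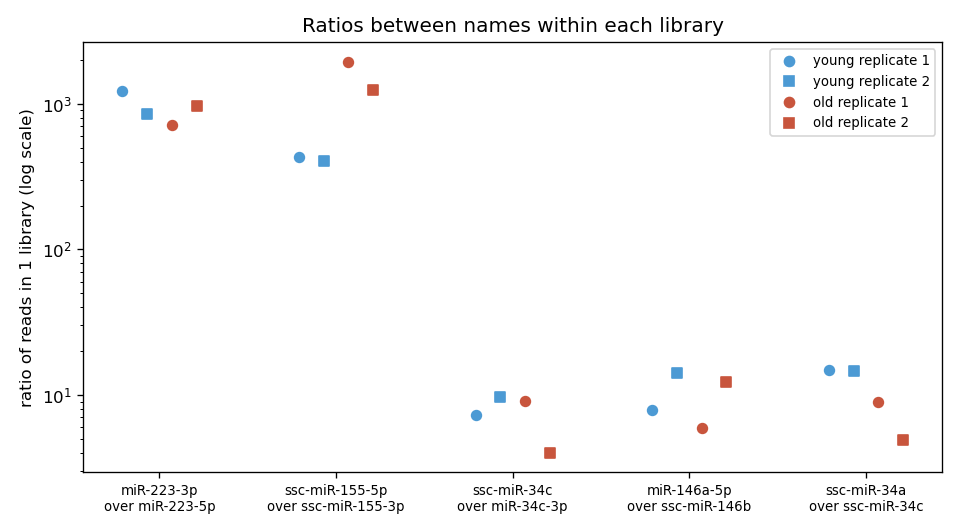
The 5 ratios between names within each library, on a log axis, with blue for young and red for old livers, circles for replicate 1 and squares for replicate 2. Old livers lay below young livers for ssc-miR-34a over ssc-miR-34c and above them for the miR-155 arms, where each old value rests on 2 reads of the minor arm, and the ages overlapped in the other 3 ratios.

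The 2 old livers differed from each other in most members. In log2(RPM + 1), the gap between the old livers was larger than the difference between ages in 7 of the 9 members with a mean deposited value of at least 10, and in 224 of the 415 known names at that level (54.0%). miR-34c-3p and ssc-miR-34c were the members whose difference between ages was the larger, 1.002 against a gap of 0.59 and 1.01 against 0.37. Old replicate 1 was above old replicate 2 in 8 of these 9 members, and in 222 of the 415 known names (53.5%). Over those 415 names the median gap was 0.58 between the old livers and 0.25 between the young ones. The gap was 2.17 for miR-21-5p, 1.25 for ssc-miR-146b and ssc-miR-34a, 1.16 for both miR-223 arms, 0.52 for ssc-miR-155-5p and 0.27 for miR-146a-5p. For ssc-miR-155-5p and miR-146a-5p the gap between the young livers was the larger, 0.85 and 0.53.

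**Figure D4:**
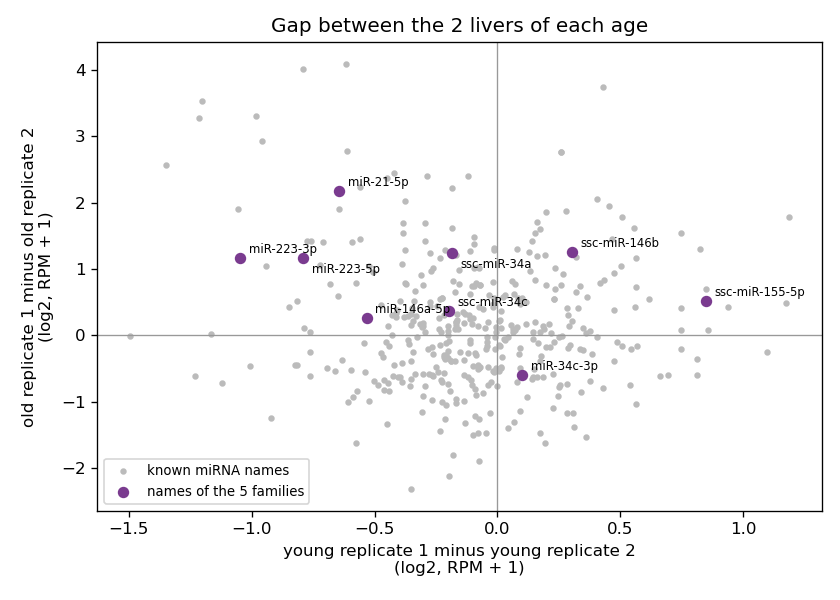
Difference between the 2 old livers against the difference between the 2 young livers, replicate 1 minus replicate 2, in log2(RPM + 1), for 415 known miRNA names in grey and 9 members in purple. miR-21-5p lay at 2.17 on the axis of the old livers, and 8 of the 9 members lay above 0 on it.

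Markers of other cells were read in the same libraries. The other leukocyte miRNAs, miR-142 and miR-150 (3 names), summed to between 710 and 765 RPM in young livers and between 880 and 1235 in the old ones. In that list miR-150-5p, a lymphocyte miRNA, was higher in both old livers (65.6, 107, 278 and 390 RPM, limma adjusted p = 0.263 and edgeR exact adjusted p = 0.00693), while the miR-142 arms overlapped between ages. The erythroid miRNAs (4 names) summed to between 2852 and 3877 in young and between 1742 and 2991 in old livers. The muscle miRNAs (7 names) summed to between 159 and 175 in young and between 490 and 947 in old livers. As deposited, 5 of 7 were higher without overlap beside 28.3% of all names, ssc-miR-1 and miR-1-3p being forms of 1 miRNA. Of these 5, ssc-miR-133a-5p overlapped in RPM, with 1.36 and 2.08 in young against 1.84 and 2.79 in old livers. The liver miRNAs (8 names) summed to between 463732 and 487546 in young and between 439217 and 450840 in old livers. The part of these cells in the members' values was not tested.

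Neutrophil and macrophage mRNAs were read beside miR-223, and none passed limma's thresholds. All 5 neutrophil markers with an identifier, of 8 listed, were higher in both old livers, beside 24.4% of all mRNAs, with a median log2 fold change of 0.89 against -0.02 over the 16898 mRNAs tested. Their CPM summed to 0.25 and 0.578 in young livers against 8.53 and 2.41 in old ones, with old replicate 1 highest as for miR-223-3p, while the defining granule genes MPO and ELANE reached at most 0.265 CPM and were at 0 in both young livers, so that both rest on few reads. S100A8, a calcium-binding protein of neutrophils and monocytes, had no read counted in either young liver against 3.54 and 0.919 CPM in old ones, at least 66.3-fold higher when each young library is set to 3 reads and at least 27.3-fold from old replicate 2 alone (edgeR exact adjusted p = 6.31e-05, limma 0.309). Over all mRNAs, 17262 and 16978 were above 0 in the old libraries against 15230 and 14291 in the young ones. The old libraries held fewer summed reads, 22482241 and 24866406 against 37555696 and 37125093. Of the macrophage markers, 6 of 7 had higher means and 4 were higher without overlap, among them CD68 with 18.9 and 15.9 CPM in young and 28.9 and 27.4 in old livers, and CD14 with 27.9 and 27.8 in young and 49.7 and 91.1 in old livers. CLEC4F and TIMD4, markers of Kupffer cells named after their values were seen, split the old livers instead, with CLEC4F at 20.97 and 32.2 CPM in young and 101.7 and 0.933 in old livers and TIMD4 at 12.8 and 23.3 in young and 52.3 and 10.7 in old livers. The macrophage sum ranged from 266 to 309 CPM in young and from 387 to 494 in old livers. The part of these cells in the miR-223 values was not tested.

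Of the other lists, the T and NK cell markers had 5 of 5 higher means and 4 higher without overlap, beside 24.4% of all mRNAs, among them CD8A and NKG7, with a summed CPM of 6.64 and 8.49 in young and 17.7 and 11.8 in old livers. The B cell markers had 3 of 3 lower means at a summed level of at most 1.93 CPM. The hepatocyte markers had 4 of 5 lower means, with ALB at 29468 and 35205 CPM in young and 16534 and 23978 in old livers and TTR overlapping between ages. TF and HNF4A also overlapped, HNF4A with a log2 fold change of -0.0004. In edgeR's exact test their fold changes were above 0 (0.04 and 0.07), and those of ALB and TTR stayed below it (-0.48 and -0.59). Over all mRNAs the CPM summed to 408898 and 428910 in young libraries against 365330 and 346173 in old ones. The erythroid markers had 2 of 3 lower without overlap, HBB and ALAS2, beside 25% of all mRNAs, and the stellate cell and fibroblast markers, DCN and ACTA2 among them, had 3 higher and 3 lower means of 6 and none without overlap. No gene of these lists passed limma's thresholds, and among the marker lists edgeR's exact test called S100A8 alone.

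Reported targets of the 5 families were read in the RNA-seq libraries of the same livers, from lists of genes known to be repressed by each. Across the mRNAs limma called 0 of 16898 (0%), with 2654 (15.7%) under an unadjusted p of 0.05, and edgeR's exact test called 534 (3.16%). Of the 34 targets tested, 17 had higher and 17 lower means in old livers, with a median log2 fold change of 0.01. Among them 10 were higher and 4 lower without overlap, beside 24.4% and 25% of all mRNAs, and 3 had an unadjusted p under 0.05. edgeR's exact test called 2 of them, SPI1 and CXCL2.

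The 8 tested targets of miR-21 had 3 higher and 5 lower means, a median of -0.08. PDCD4, a translation inhibitor and tumour suppressor, stood at 10.4 and 13.5 CPM in young livers against 6.71 and 8.83 in old ones, lower in both old livers (log2 fold change -0.56, limma adjusted p = 0.369). TGFBR2, a TGF-beta receptor, went the other way, with 9.49 and 6.24 CPM in young and 19.6 and 21.4 in old livers (log2 fold change 1.30, standard error 0.24, limma adjusted p = 0.228). SPRY2, an inhibitor of receptor tyrosine kinase signalling, was at 1.02 CPM and 0 in young livers against 2.02 and 2.94 in old ones. None of the 3 showed the wide gap between the old livers that miR-21-5p had.

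VMP1, whose transcription unit reaches the miR-21 hairpin in humans, stood at 10.99 and 11.4 CPM in young livers against 6.63 and 4.91 in old ones. It was lower in both old livers (log2 fold change -0.86, standard error 0.18, limma adjusted p = 0.241, edgeR exact adjusted p = 0.681), and its old livers lay close together where those of miR-21-5p lay apart. In the RefSeq table of Sscrofa11.1 the MIR21 hairpin lies between PTRH2 and TUBD1, with no coding gene listed over it. In the same table MIR34C-1 overlaps BTG4 and C9H11orf88, MIR146A lies between ATP10B and PTTG1, MIR146B lies next to CUEDC2 and MIR155 lies between NCAM2 and MRPL39.

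The 6 tested targets of miR-34 had 1 higher and 5 lower means, a median of -0.28, and only 1 lower without overlap, beside 25% of all mRNAs. SIRT1, an NAD-dependent deacetylase, was at 1.18 and 1.99 CPM in young and 1.202 and 0.905 in old livers, and MET, the receptor of hepatocyte growth factor, was at 5.79 and 8.70 in young and 6.08 and 2.99 in old livers. Both overlapped between ages (limma adjusted p = 0.585 and 0.551). CDKN2A and CDKN1A, inhibitors of cyclin-dependent kinases that mark senescence, were named after their values were seen. CDKN2A was at 0.731 and 0.167 CPM in old livers and at 0 in the young ones (limma adjusted p = 0.444, edgeR exact adjusted p = 0.0641), and CDKN1A was listed at 0 in all 4 livers. As given beside S100A8, the old RNA-seq libraries had more mRNAs above 0 than the young ones.

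The 6 tested targets of miR-146 all had higher means in old livers, beside 7956 of all 16898 mRNAs tested. Their median log2 fold change was 0.58, against -0.02 over all mRNAs. Of the 6, 3 were higher without overlap, beside 24.4% of all mRNAs, and no test of the set was run. IRAK1, the kinase below Toll-like receptors, stood at 0.468 and 0.3 CPM in young and 1.09 and 1.46 in old livers (log2 fold change 0.72, standard error 0.16, limma adjusted p = 0.246). IRF5, an interferon regulatory factor of myeloid cells, was at 1.96 and 2.66 in young and 3.95 and 1.80 in old livers, with a log2 fold change of -0.23 without old replicate 1. TRAF6 had no identifier with that symbol and was not analysed here.

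Of the NF-kB and Toll-like receptor genes, 8 of 13 tested had higher means, a median of 0.10. Of the 13, 3 were higher and 1 lower without overlap, beside 24.4% and 25% of all mRNAs. NFKBIA, the NF-kB inhibitor that NF-kB itself induces, stood at 8.06 and 8.64 CPM in young and 13.0 and 15.8 in old livers (log2 fold change 0.71, standard error 0.15, limma adjusted p = 0.242). IKBKB, a kinase of the NF-kB activating complex, was at 3.05 and 3.004 in young and 7.02 and 3.77 in old livers. TLR4, the receptor of lipopolysaccharide, taken by symbol as ENSSSCG00000005503 while the study lists it under another identifier not used here, was at 2.53 and 0.659 in young and 1.87 and 1.53 in old livers and overlapped between ages. Under that other identifier the study reports TLR4 as down-regulated in old livers. The cytokines and chemokines had 4 of 4 tested with higher means and 1 higher without overlap, beside 24.4% of all mRNAs. CCL2 (0 and 3.79 CPM in young, 2.08 and 5.79 in old livers) and TGFB1 (1.33 and 0.462, then 1.25 and 1.99) overlapped. IL6 was listed at 0 in all 4 livers.

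The 7 tested targets of miR-155 had 4 higher and 3 lower means, a median of 0.28. SPI1, the myeloid transcription factor PU.1, which also acts on the miR-223 gene, was at 1.85 and 1.94 CPM in young and 26.5 and 5.78 in old livers. Both old livers lay above the young ones and old replicate 1 was the highest, the same order of the old livers as in miR-223-3p (log2 fold change 2.24, standard error 0.80, limma adjusted p = 0.341, edgeR exact adjusted p = 0.0231). Its log2 fold change was 1.227 without old replicate 1 and 3.25 without old replicate 2. TAB2, an adaptor of the TAK1 kinase, was lower in both old livers, with 5.00 and 4.83 CPM in young and 3.88 and 2.84 in old livers (limma adjusted p = 0.365). SOCS1, an inhibitor of cytokine signalling, was at 0.152 CPM and 0 in young and 0.374 and 0.237 in old livers, from at most 23 reads.

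The 7 tested targets of miR-223 had 3 higher and 4 lower means, a median of -0.07, and 1 higher without overlap, beside 24.4% of all mRNAs. NFIA, a transcription factor that holds back granulocyte development, was at 7.34 and 9.94 CPM in young and 3.36 and 7.41 in old livers, and MEF2C, a factor of myeloid progenitor growth, was at 3.005 and 2.25 in young and 2.39 and 2.09 in old livers. Both overlapped between ages (limma adjusted p = 0.544 and 0.717). CXCL2, a neutrophil chemokine named after its values were seen, had no read counted in either young liver against 0.357 and 0.404 CPM in old ones, at least 11.3-fold higher when each young library is set to 3 reads (edgeR exact adjusted p = 0.0305, limma 0.253). More mRNAs in general were above 0 in the old RNA-seq libraries, as given beside S100A8.

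Of the transcription factors known to act on the genes of these miRNAs, 5 of 5 tested had higher means and 4 were higher without overlap, beside 24.4% of all mRNAs, with a median log2 fold change of 2.24, and SPI1 is counted here as well as among the miR-155 targets. JUNB, an AP-1 subunit, stood at 0.131 and 0.994 CPM in young and 11.4 and 14.4 in old livers (log2 fold change 3.20, standard error 0.36, limma adjusted p = 0.213, edgeR exact adjusted p = 0.00590). FOS, the partner AP-1 subunit, named after its values were seen, was at 1.17 and 1.49 in young and 9.95 and 206 in old livers (limma adjusted p = 0.362, edgeR exact adjusted p = 0.00613). STAT3, also named after its values were seen, overlapped between ages, with 39.6 and 24.8 CPM in young and 35.4 and 32.0 in old livers. Over all 61 target and pathway genes tested, 20 were higher and 6 lower without overlap, beside 24.4% and 25% of all mRNAs. An unadjusted limma p under 0.05 was found in 7 of the 61, beside 15.7% of all mRNAs. edgeR's exact test called 4 of them, SPI1, CXCL2, FOS and JUNB, beside 3.16% of all mRNAs.

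**Figure D5:**
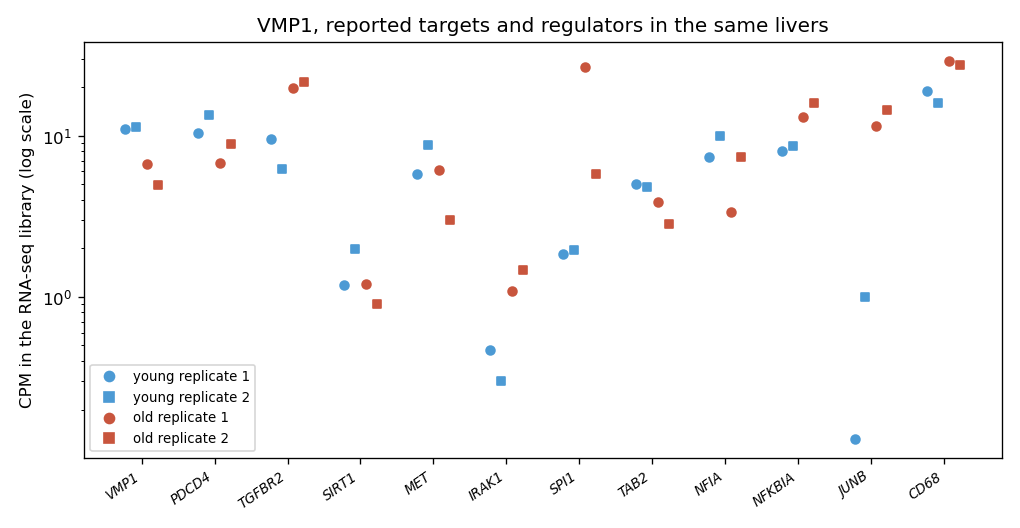
CPM of VMP1, of reported targets, of NF-kB and AP-1 genes and of the macrophage marker CD68 in the RNA-seq library of each liver, on a log axis, with blue for young and red for old livers, circles for replicate 1 and squares for replicate 2. VMP1, PDCD4 and TAB2 were lower and TGFBR2, IRAK1, SPI1, NFKBIA, JUNB and CD68 higher in both old livers, and no gene passed limma's thresholds.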

How the data were processed

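Small RNA-seq and RNA-seq were made from the livers of 2 young and 2 old sows, and libraries were grouped by age. The miRNA signal values were made by the authors with mirdeep2 on miRBase names and scaled per library to a total not given in the sources used here. The mRNA CPM values were made by the authors, who aligned reads to Sscrofa10.2 with TopHat2 2.0.14, assembled with StringTie 1.2.3 and name the values TPM from Salmon 0.6.0. As deposited they are whole multiples of 1 step per library, with no gene length in them, and are taken as CPM. Versions are from the submitters' processing notes. Values of lncRNAs and circRNAs were not used here.

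Whole reads were recovered by dividing by the step, and 100% of the values above 0 were whole within 0.002 of a deposited unit. Reads summed over mRNAs were 22482241 to 37555696 per library. Old was compared with young by limma 3.58.1 (R 4.3.3) on log2(value + 1), for features read in 2 or more libraries, and p-values were adjusted after Benjamini and Hochberg. A fold change on this scale is understated for low features. edgeR 4.0.16 and DESeq2 1.42.0 were run on whole reads, and fits were tested on simulated counts. Ratios were tested by exact permutation over libraries. With 2 animals per age, p-values carry little power. Deviations of same-numbered libraries did not correlate (r = -0.02 for miRNAs, 0.09 for mRNAs), so the numbers were not taken as pairs.

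Members and gene lists were chosen with earlier results of these data known. All members are named. Of each mRNA list the 2 genes with the smallest limma p and a mean of at least 1 CPM are named, plus VMP1, TLR4, SIRT1, IRAK1, TRAF6, SOCS1 and PDCD4, and for miR-21-5p the 3 most alike known miRNAs. Some genes that this rule names are not reported here. Of 134 listed symbols 97 matched an identifier. Gene neighbours are from RefSeq on Sscrofa11.1, another build than the files use, so no coordinates are given. Alternatives covered pseudocount, filter, scaling, variance trend, test, replicate block, repeated names and leaving out each library.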

Additional observations from a re-analysis of the deposited data

How the results depend on the processing

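No member passed the thresholds under any alternative run. The count of all miRNAs called, 0, became 16 over names with a mean of at least 10, 7 with a mean-variance trend, 26 in edgeR's exact test and 43 in DESeq2, and the count of target and pathway mRNAs, 0, became 4 in the exact test. The replicate block called 0 miRNAs and 0 of these mRNAs and changed no call. Of 129 alternative fold changes of members that kept all libraries, 129 had the same direction as reported. Leaving out 1 library turned 8 of the others, with ranges of -1.48 to 0.75 for miR-21-5p, -0.69 to 0.63 for ssc-miR-34a, -1.16 to 0.42 for ssc-miR-155-5p, -0.47 to 0.91 for ssc-miR-146b and -0.24 to 0.085 for miR-146a-5p, and among named mRNAs -0.16 to 1.43 for ACTA2, -0.066 to 2.19 for CCL2, -0.81 to 0.23 for DCN, -0.23 to 0.59 for IRF5 and -0.39 to 0.70 for TLR4. The cause was not tested. The log2 difference of the miR-155 arm ratio, 1.90, was 1.52 with a pseudocount of 1. Without 1 library the ratios of the miR-34c arms (-1.07 to 0.11) and of miR-146a-5p to ssc-miR-146b (-0.83 to 0.23) changed sign. Members at 3 reads or fewer in any library numbered 1, and 0 when any value above 0 counted as detected. ssc-miR-155-3p was left out by the filter on means and has no adjusted p in DESeq2. Members with few reads are limited by counting error, and 2 animals per age limit all others.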
